A study of Mus musculus with 13 samples.

Results

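The comparison described here asks whether retinae of mice without PGC-1α answered bright light differently from wild-type (WT) retinae. The Ppargc1a gene encodes PGC-1α, a coactivator that transcription factors recruit to genes of mitochondria and oxidative metabolism. The measure is the genotype by light interaction, which is the light response of the PGC-1α knockout (KO) minus the light response of the WT on the log2 scale, where a light response is light minus dark. It was computed from 12 of the 13 arrays of the series, with 3 arrays in each of 4 groups: KO dark, KO light, WT dark and WT light. A positive value means that a gene rose more, or fell less, in KO than in WT retinae. The interaction was tested for 19189 genes outside the X and Y chromosomes, and all of them are its members whether they passed the test or not.

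The KO mice carried a global deletion of PGC-1α on a C57 BL/6 background, so every cell of the animal lacked it for life. The WT mice were bought as C57 BL/6 NRj animals according to the methods, whereas the legends name C57BL/6j, and they were not described as littermates of the KO mice. The animals of the light exposure were between 6 and 13 weeks old, and the age of a single animal was not given. All were dark adapted for 16 h, after which the light groups received 15000 lux of light for 2 h and the dark groups received none. The series describes eyes taken after exposure and the methods mention a night of recovery in darkness, so the time between light and tissue is not settled. Each array, an Affymetrix Mouse Gene 1.0 ST, carries RNA of the 2 pooled retinae of 1 mouse. By the labels all mice of the KO dark and WT dark groups were female and all mice of the KO light and WT light groups were male, while the methods name males. A genotype difference in the light response can therefore not be told apart from a genotype difference between the sexes.

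Bright light that overloads the phototransduction cascade of rods is a standard way to injure the rodent retina. Stressed photoreceptors release signals such as endothelin 2, and Müller glia, the radial support cells of the retina, answer with the LIF and STAT3 pathway, which raises growth factors, acute-phase proteins and intermediate filaments. Microglia, the resident macrophages, move toward the photoreceptors and secrete chemokines and complement. Rods, which make up most of the retina, keep their visual genes on through the transcription factors Crx, Otx2 and Nrl. RNA of a whole retina cannot tell fewer cells of a type apart from less RNA per cell.

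One fact about the arrays touches every result. The array labelled KO light replicate 3 correlated on average at 0.9976 with the WT dark arrays and at 0.9920 with KO light replicates 1 and 2, over all tested genes. A thirteenth array, labelled WT dark replicate 4 and male, correlated at 0.9974 with KO light replicates 1 and 2 and at 0.9899 with the 3 WT dark arrays. Both carried the sex transcripts of males: Xist, the RNA that coats the inactive X chromosome of females, was at 5.31 and 4.88 on them and between 11.86 and 12.02 on the 6 female dark arrays. Without these 2 arrays, 4 genes separated the 5 KO from the 6 WT arrays by a gap of over 0.5 on the log2 scale, among them Sik2, a kinase of the salt-inducible family. On all 4 genes the array labelled KO light replicate 3 lay nearer the WT mean and the array labelled WT dark replicate 4 nearer the KO mean. For Sik2 the KO arrays ranged from 9.55 to 9.85 and the WT arrays from 10.39 to 10.81, while KO light replicate 3 was at 10.75 and WT dark replicate 4 at 9.58. The count of called genes and the main genes are therefore given as labelled and also with exchanged arrays, a form of the fit that takes WT dark replicate 4 for the third KO light array and drops KO light replicate 3. The exchange rests on the expression values themselves, so the tests made with it are not independent of the data that led to it.

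Ppargc1a itself did not separate the genotypes on this array. Its log2 level was 10.40, 10.19 and 10.26 in KO dark, 10.03, 10.01 and 10.02 in WT dark, 10.02, 10.25 and 9.96 in KO light and 9.96, 9.85 and 9.99 in WT light. The KO dark arrays did not overlap the WT dark arrays and lay above them, and KO light replicate 2 lay among the KO dark arrays. Which part of the transcript its probes cover relative to the deleted part was not analysed here, so the level checks no label. Its interaction was -0.12 as labelled (adjusted p = 0.868) and -0.12 with exchanged arrays (adjusted p = 0.629).

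With the arrays as labelled, 12 genes passed the test of the interaction at an adjusted p under 0.05 in limma, 7 with a higher and 5 with a lower light response in KO, which is 0.0625% of the genes tested. At an unadjusted p under 0.05 there were 1325. The 12 include Cdkal1, an enzyme that modifies a lysine tRNA, Odc1, the rate-limiting enzyme of polyamine synthesis, Nt5e, the cell-surface enzyme that makes adenosine, Pcolce, an enhancer of procollagen processing, and Fndc1, a matrix protein with fibronectin domains. For comparison, the light response alone was called for 11 genes in KO, 0.0573% of those tested, and for 65 genes in WT, 0.339%.

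Cdkal1 had the smallest adjusted p of the 12. Its log2 level was 9.64, 9.68 and 9.63 in KO dark, 9.63, 9.70 and 9.66 in KO light, 9.81, 9.71 and 9.76 in WT dark and 9.07, 8.92 and 9.05 in WT light. The 3 WT light arrays lay below all others and the KO arrays overlapped each other. The interaction was 0.76 ± 0.07 (SE of the fit, adjusted p = 0.00386), and the call held without each of the 12 arrays in turn. Shisa4, a membrane protein of the Shisa family, had the same form, with WT light at 9.35, 9.51 and 9.65 and every other array at 9.97 or higher. Its interaction was 0.68 ± 0.10 (adjusted p = 0.0345).

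Fndc1 had the largest interaction of the 12. Its log2 level was 8.86, 8.72 and 8.94 in KO dark, 7.37, 8.21 and 8.23 in KO light, 8.05, 8.07 and 7.69 in WT dark and 9.30, 8.68 and 9.23 in WT light. The KO light arrays were all below the KO dark arrays, and the WT light arrays were all above the WT dark arrays. The interaction was -2.03 ± 0.30 (adjusted p = 0.0402). Nt5e moved the same way, from between 11.06 and 11.12 in KO dark to 10.67, 10.98 and 10.71 in KO light, and from 10.85, 10.70 and 10.73 in WT dark to between 11.19 and 11.26 in WT light, with an interaction of -0.76 ± 0.10 (adjusted p = 0.0337). Odc1 moved the other way, from 7.98, 8.03 and 7.86 in KO dark to 8.34, 8.28 and 8.49 in KO light, and from 8.84, 8.59 and 8.75 in WT dark to 8.39, 8.20 and 8.43 in WT light. Neither pair of Odc1 groups overlapped, and its interaction was 0.80 ± 0.12 (adjusted p = 0.0345).

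**Figure D1:**
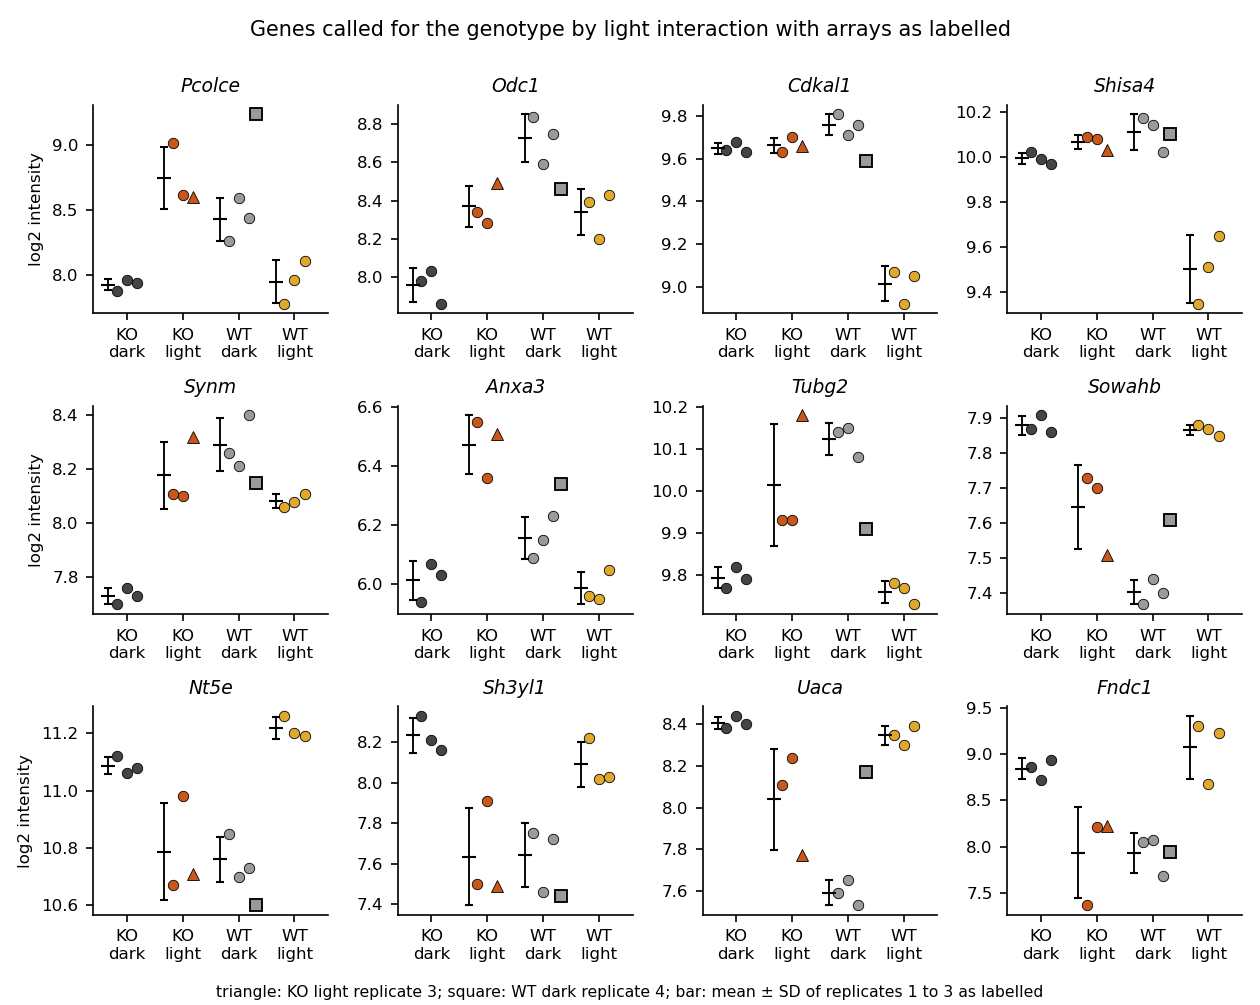
Log2 intensity of the 12 genes called for the interaction with the arrays as labelled, by group, with 1 point per array and a bar for the mean ± SD of replicates 1 to 3. A triangle marks KO light replicate 3 and a square WT dark replicate 4, and in Cdkal1 and Shisa4 only the WT light arrays are low, while in Fndc1, Nt5e and Sh3yl1 the KO dark and WT light arrays are high together.

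All 12 genes shared an arrangement that the test did not ask for. The means of KO dark and WT light both lay above, or both below, the means of KO light and WT dark. Among all genes tested 4225, or 22.0%, were arranged in this crossed way. In Cdkal1 the KO means hardly differed, at 9.65 in the dark and 9.66 in light, and with exchanged arrays it was not crossed. With exchanged arrays 187 of the 564 called genes were crossed, or 33.2%, beside 19.2% of all genes tested. The form was noticed after the values were seen and is given as a description, since opposite light responses in the 2 genotypes favor both a crossed arrangement and a large interaction. Uaca, a protein tied to the apoptosome, was at 8.38 to 8.44 in KO dark, 8.11, 8.24 and 7.77 in KO light, 7.53 to 7.65 in WT dark and 8.30 to 8.39 in WT light. Its interaction was -1.12 ± 0.13 (adjusted p = 0.0104). The other genes of the 12 were Pcolce at 1.30, Synm, an intermediate filament protein, at 0.65, Anxa3, an annexin, at 0.62, Tubg2, a gamma-tubulin, at 0.58, Sowahb at -0.70 and Sh3yl1 at -1.05, with adjusted p from 0.0104 to 0.0420.

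The 12 calls depended on nearly every array. Leaving out 1 array at a time gave between 1 and 22 genes, with the exception of KO light replicate 3, without which 255 genes were called, 198 higher and 57 lower, or 1.33% of those tested. All 12 genes were among these 255. Without moderated variances 1 gene was called.

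With exchanged arrays 564 genes were called, 2.94% of those tested. The KO light response exceeded the WT light response in 402 genes, 2.09%, and was below it in 162 genes, 0.844%. At an unadjusted p under 0.05 there were 3131, and leaving out 1 array at a time gave 230 to 1194. All 12 genes called as labelled were among the 564, and the sign of the interaction was the same as labelled for each of the 564. The light response alone was called for 2565 genes in KO, 13.4% of those tested, and for 851 genes in WT, 4.43%. Of the 564, the array labelled KO light replicate 3 lay nearer the WT dark mean than the mean of KO light replicates 1 and 2 in 518 genes. Since the 564 were called in the fit that drops this array for its look-alike, the count is no independent evidence for the exchange. The share over all genes tested is not given here. Of the 255 genes called with neither of the 2 arrays, 250 were among the 564. These forms of the fit share every array outside the exchange. Shared genes and shared signs are thus largely built in and are no independent evidence.

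The largest interaction of the 402 genes with the higher response in KO was that of Abhd14a, whose form is described further on, followed by Gpnmb, Ccl3 and Lcn2. Of these, Lcn2, an iron-siderophore binding protein of the acute phase, was at 8.24, 8.04 and 8.52 in KO dark, 8.27, 8.65 and 8.52 in WT dark and 8.30, 8.39 and 8.94 in WT light. It was at 10.41 and 10.10 in KO light replicates 1 and 2, at 10.91 on the array labelled WT dark replicate 4 and at 8.66 on the array labelled KO light replicate 3. The 3 arrays taken as KO light were more than 1 unit above every other array. The interaction of Lcn2 was 2.13 ± 0.29 with exchanged arrays (adjusted p = 0.0031), 1.92 with neither array (adjusted p = 0.00664) and 1.38 ± 0.49 as labelled (adjusted p = 0.573).

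Ccl3, a chemokine that draws monocytes, was at 5.64, 5.63 and 5.78 in KO dark, 5.78, 5.95 and 6.07 in WT dark and 6.47, 6.17 and 6.77 in WT light. It was at 8.61 and 7.63 in KO light replicates 1 and 2, at 8.92 on the array labelled WT dark replicate 4 and at 6.04 on the array labelled KO light replicate 3. WT light was above WT dark on every array, without passing the test (0.54, adjusted p = 0.207), and the arrays taken as KO light were higher still. The interaction was 2.17 ± 0.35 with exchanged arrays (adjusted p = 0.00744) and 1.21 ± 0.63 as labelled (adjusted p = 0.759).

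Gpnmb, a glycoprotein of melanosomes and of lysosome-rich macrophages, differed from Lcn2 and Ccl3 in that the WT light arrays were the lowest. It was at 8.17, 8.25 and 8.12 in KO dark, 7.83, 8.20 and 8.16 in WT dark and 7.40, 7.38 and 7.73 in WT light. It was at 9.40 and 10.22 in KO light replicates 1 and 2, at 9.89 on the array labelled WT dark replicate 4 and at 8.81 on the array labelled KO light replicate 3. The array labelled KO light replicate 3 stayed above replicates 1 to 3 of every other group here. The interaction was 2.21 ± 0.24 with exchanged arrays (adjusted p = 0.00089), and the fall in WT (-0.56) missed the threshold (adjusted p = 0.0597). As labelled the interaction was 1.85 ± 0.36 and was not called (adjusted p = 0.18). Gpnmb stood beside pigment cell markers that varied between arrays: the summed intensity of 10 of 10 markers of the retinal pigment epithelium and pigment cells ranged from 2189 to 4482 in KO dark, 2682 to 3593 in WT dark, 1306 to 2743 in WT light and 2343 to 5026 on the arrays taken as KO light. None of the 10 was at 0 or called, and their part in the result was not tested. With exchanged arrays their interactions reached 1.96 in Dct, 1.23 in Tyrp1 and 0.98 in Ttr, and Rpe65 was the only negative one, at -0.48.

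**Figure D2:**
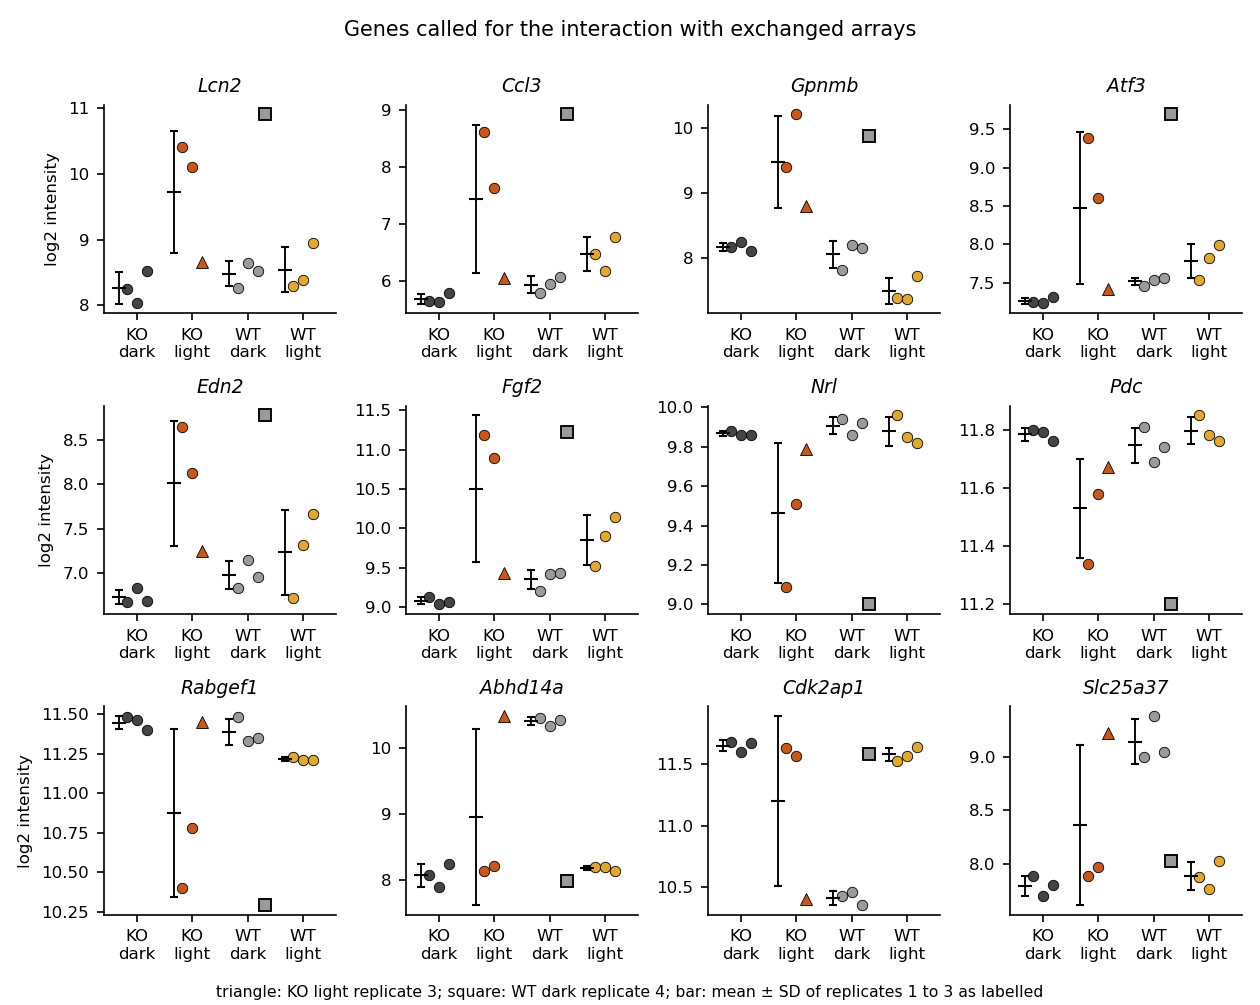
Log2 intensity of 12 genes called for the interaction with exchanged arrays, drawn by label with 1 point per array and a bar for the mean ± SD of replicates 1 to 3 as labelled. The square, WT dark replicate 4, sits with KO light replicates 1 and 2 in Lcn2, Ccl3, Atf3, Fgf2, Nrl and Rabgef1, and the triangle, KO light replicate 3, sits with the WT dark arrays, most plainly in Abhd14a, Cdk2ap1 and Slc25a37.

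The other large positive interactions with exchanged arrays were 1.91 in Serpina3n, a serine protease inhibitor of reactive glia, 1.91 in Gadd45b, a stress and growth arrest gene, 1.80 in A2m, the protease trap alpha-2-macroglobulin, 1.80 in Trf, transferrin, 1.72 in Oasl2, an interferon-induced gene, 1.70 in Atf3, a stress-induced transcription factor, and 1.64 in Cd44, a hyaluronan receptor. Fgf2os, a noncoding RNA whose gene overlaps that of the growth factor Fgf2, was at 1.64, and array signal of either gene on the shared stretch was not separated here. As labelled none of these 8 genes was called. Their as-labelled interactions ran from 0.88 in A2m and Cd44 to 1.33 in Trf, with adjusted p from 0.188 to 0.839 in limma. With exchanged arrays adjusted p for these 8 genes lay between 0.0036 and 0.0396. In each of them the arrays taken as KO light lay above the other arrays of that fit, in Oasl2 only just, with 8.72 against 8.71 in WT light, and the KO dark arrays of Oasl2 were the lowest at 7.34 to 7.98. Gadd45b rose in both genotypes, by 2.73 in KO and by 0.82 in WT. Serpina3n and Trf lost the call without most single arrays, keeping it in 3 and 4 of the 12 leave-outs, whereas 10 of the 12 largest positive interactions kept it in all 12.

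The largest negative interactions were of mixed form. Cmtm5, a membrane protein of the chemokine-like factor family, rose in WT from 8.13, 8.39 and 8.13 in the dark to 9.24, 9.10 and 9.29 in the light, and in KO was at 8.89, 9.01 and 8.88 in the dark. It was at 8.13 and 9.02 in KO light replicates 1 and 2 and at 8.07 on the array labelled WT dark replicate 4, so the arrays taken as KO light were not of one kind. Its interaction was -1.51 ± 0.26 with exchanged arrays (adjusted p = 0.0100) and -1.48 ± 0.26 as labelled (adjusted p = 0.0904). Me1, malic enzyme, had an interaction of -0.84 (adjusted p = 0.00335), with a fall of 0.37 in KO and a rise of 0.47 in WT. As labelled Me1 was at -0.99 and was not called (adjusted p = 0.0993). Etnppl, Pitpnm3, Folh1 and Plpp2, at -1.22, -0.88, -0.86 and -0.84, fell in light in KO and were not called in WT. The interaction kept its call in 2, 1, 3 and 6 of the 12 leave-outs. As labelled these genes were at -0.86, -0.49, -0.62 and -0.45, and none was called. Of the 12 largest negative interactions with exchanged arrays 8 kept the call in all 12.

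**Figure D3:**
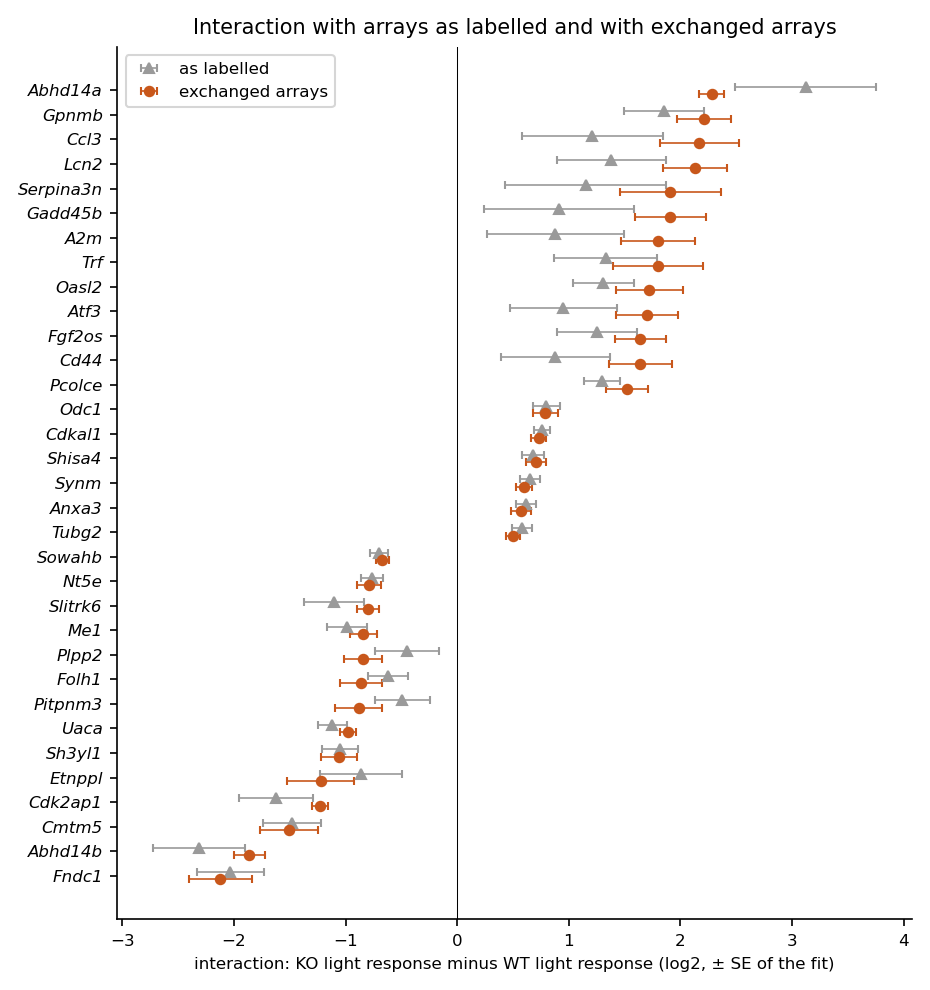
Interaction on the log2 scale, with the SE of the fit as the bar, for each gene called as labelled and each of the 12 largest interactions in either direction with exchanged arrays. Triangles show the arrays as labelled and circles the exchanged arrays. Every pair has one sign, and the triangles of Lcn2, Ccl3, Gadd45b, A2m and Atf3 lie nearer 0 with wider bars than the circles. Both fits share every array outside the exchange, so a shared sign is largely built in.

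Which group carried the difference was read from the 4 group means, with a group called apart when its distance to the nearest other mean exceeded the span of the other 3. KO light stood apart in 387 of the 564 genes, WT dark in 34, WT light in 32, KO dark in 17 and no group in 94. Over all genes tested KO light was apart in 24.26%, WT dark in 8.11%, WT light in 12.33% and KO dark in 8.09%. Of the 387, 320 were higher and 67 lower in KO light. In the 320 the median light response was 0.69 in KO and 0.09 in WT, and the WT mean was higher in light than in dark in 243. In the WT alone 38 of the 320 were called as raised by light and 2 as lowered. In the 67 the median light response was -0.41 in KO and 0.02 in WT. As labelled, the median interaction of the 320 was 0.31, beside 0.57 with exchanged arrays. These genes were chosen by the same contrast, and the values describe them without a test.

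**Figure D4:**
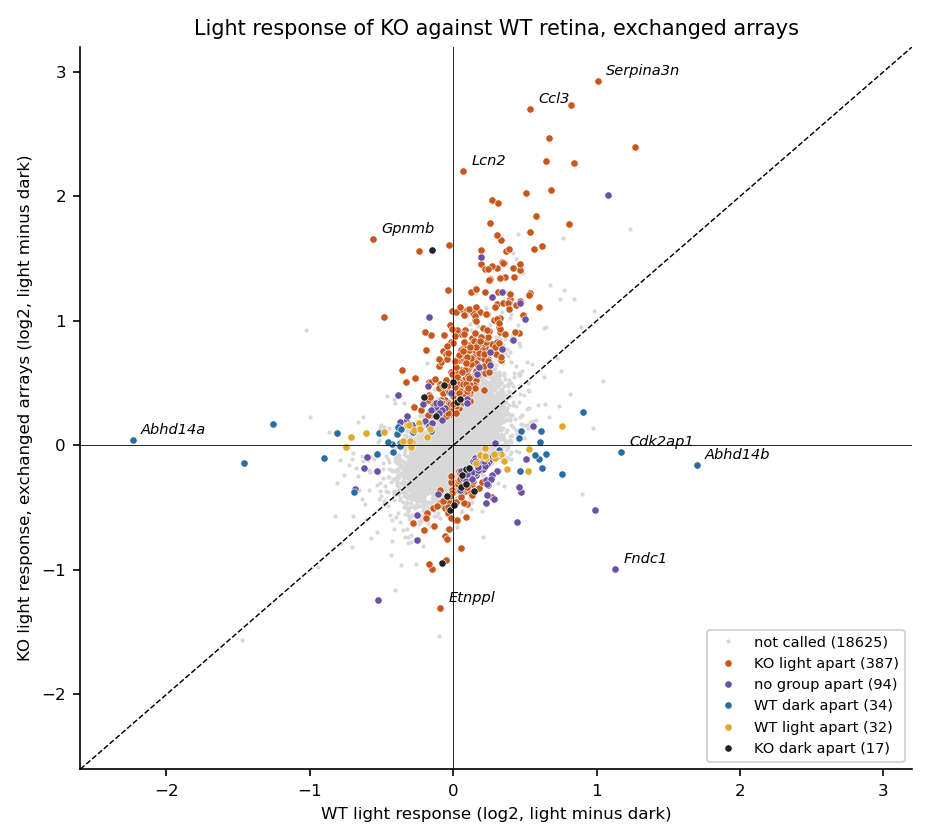
Light response in KO against light response in WT on the log2 scale with exchanged arrays, 1 point per gene, where the dashed line marks equal responses. Colors give the group whose mean stands apart among the 564 called genes: the 387 genes with KO light apart lie mostly above or below the line close to the vertical axis, and the 34 genes with WT dark apart lie near the horizontal axis.

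The 24 gene lists described next were chosen with earlier results of these data known, so their counts describe these arrays and are no independent evidence of a direction. Early transcription factors came first. AP-1 and immediate early genes are switched on within minutes of stress. With exchanged arrays 5 of 20 passed higher and none lower, at a median interaction of 0.29, beside 2.09% higher and 0.844% lower and a median of -0.02 over all genes. The 5 were Atf3, Myc (1.04), Fosb (0.85), Jun (0.82) and Jund (0.39). Atf3 was at 7.25, 7.24 and 7.31 in KO dark, 7.46, 7.53 and 7.56 in WT dark and 7.54, 7.82 and 7.99 in WT light, against 9.39, 8.61 and 9.70 on the arrays taken as KO light. As labelled none of the 20 passed, at a median of 0.06, and 3 had an unadjusted p under 0.05.

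Signals between photoreceptors and Müller glia came next. Of 20 genes of LIF, endothelin and STAT3 signaling 7 passed higher and none lower, beside 2.09% higher and 0.844% lower of all genes. Their median was 0.39. As labelled none of the 20 passed, at a median of 0.19, and 2 had an unadjusted p under 0.05. Edn2, the endothelin that injured photoreceptors make, was at 6.68, 6.83 and 6.69 in KO dark, 6.83, 7.15 and 6.96 in WT dark, 6.72, 7.32 and 7.67 in WT light and 8.65, 8.13 and 8.78 on the arrays taken as KO light. The WT light arrays spread over almost 1 unit and overlapped WT dark, and the arrays taken as KO light lay above all of them. Its interaction was 1.53 ± 0.29 with exchanged arrays (adjusted p = 0.0151) and 1.02 ± 0.41 as labelled (adjusted p = 0.652). Fgf2, a growth factor that protects photoreceptors, rose in both genotypes, by 2.02 in KO and 0.50 in WT, with an interaction of 1.52 ± 0.19 (adjusted p = 0.00188), beside 0.92 ± 0.47 as labelled (adjusted p = 0.754). Osmr and Il6st, receptor chains of the interleukin 6 family, and Stat3, the factor they activate, also rose in both genotypes by the call. Their interactions were 1.37, 0.76 and 0.97, and those of Bcl3 and Cebpd, transcriptional regulators induced by cytokines, were 1.37 and 1.14.

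Reactive glia and acute-phase genes held the highest share of calls of the 24 lists, 10 of 26 higher and none lower, at a median of 0.49. Over all genes 2.09% were called higher. The mean log2 level of the list was 7.55, 7.57 and 7.58 in KO dark, 7.45, 7.61 and 7.60 in WT dark and 7.71, 7.77 and 8.0 in WT light. It was 8.50 and 8.36 in KO light replicates 1 and 2, 8.71 on the array labelled WT dark replicate 4 and 7.64 on the array labelled KO light replicate 3. Besides Lcn2, Serpina3n, A2m and Cd44 the called members were Serping1, the C1 inhibitor (1.29), Gfap, the filament protein of activated Müller glia (1.12), S1pr3, a receptor of a sphingolipid signal (1.01), Cp, the ferroxidase ceruloplasmin (0.92), Mt1, a metallothionein (0.89), and Vim, vimentin (0.48). Gfap and Vim rose in both genotypes by the call, Gfap by 2.39 in KO and 1.27 in WT. Without KO light replicate 3 and without the exchange, 7 of the 26 passed higher, at a median of 0.41, and as labelled none, at 0.23, with 3 at an unadjusted p under 0.05.

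Genes by which resting Müller glia serve neurons had interactions of both signs, 11 positive and 9 negative of 20, from -0.94 to 1.26 with a median of 0.02. At an unadjusted p under 0.05 there were 11 of the 20. The 2 that passed were Crym, a thyroid hormone binding crystallin (1.26), and Clu, the chaperone clusterin (0.42). Both had a higher response in KO, beside 2.09% of all genes called higher. Of the 6 marker genes of Müller glia, none of them at 0, none was called. Their summed intensity was 11470 to 11680 in KO dark, 11241 to 11384 in WT dark, 10765 to 11821 in WT light and 9462 to 11212 on the arrays taken as KO light.

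**Figure D5:**
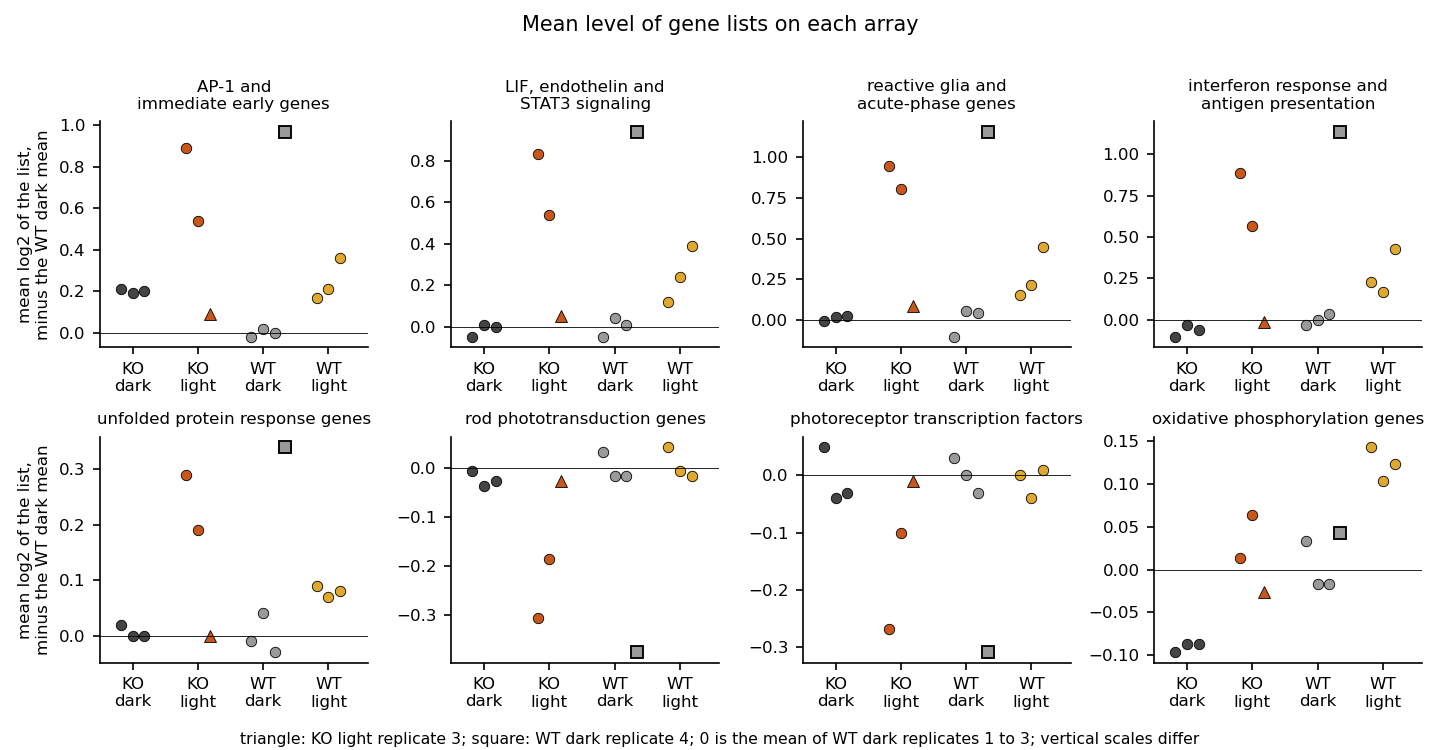
Mean log2 level of the measured members of 8 gene lists on each array, minus the mean of WT dark replicates 1 to 3, with 1 point per array, a triangle for KO light replicate 3 and a square for WT dark replicate 4. In the reactive glia list the square and KO light replicates 1 and 2 stand highest with WT light between them and the dark arrays, in the rod list the same 3 arrays stand lowest, and in the oxidative phosphorylation list the KO dark arrays are lowest and the WT light arrays highest, over a smaller range than in the reactive glia list.

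Immune genes were split by function, and their counts are read against the 2.09% of all genes called higher. In the interferon response and antigen presentation list 5 of 19 passed higher and none lower, at a median of 0.46: Oasl2, Irgm1, a GTPase (1.39), Ddx58, the RNA sensor RIG-I (1.01), Ifit1, an antiviral RNA-binding protein (0.94), and B2m, the light chain of class I molecules (0.83). Ddx58 kept the call in 3 of the 12 leave-outs. In the microglia and macrophage list 5 of 20 passed higher, at a median of 0.10. They were Gpnmb, Lgals3, galectin 3 (1.05, which kept the call in 1 of the 12 leave-outs), Cd68, a lysosomal protein of phagocytes (0.95), Fcrls (0.56) and Ly86 (0.47). Gpnmb is also a melanosome gene, and the pigment cell markers varied between arrays. Fcrls was the one of the 5 that was called as lowered by light in WT, by a log2 change of -0.37. Of the 6 defining microglia and macrophage markers, none of them at 0, 1 was called, Cd68. Their summed intensity was 734 to 787 in KO dark, 751 to 774 in WT dark, 733 to 776 in WT light and 869 to 985 on the arrays taken as KO light, and 722 on the array labelled KO light replicate 3. With exchanged arrays the interaction was 0.95 in Cd68. In the markers not called it was 0.27 in Itgam, 0.15 in Cx3cr1, 0.10 in Csf1r, -0.12 in Aif1 and -0.17 in Tmem119. The higher sum therefore does not show a rise of the whole marker set. The part of these markers in the immune genes was not tested. Among complement components 3 of 16 passed higher, at a median of 0.14: Serping1, C3ar1, the receptor of the C3a fragment (0.76), and C1qb (0.54). C1qb kept the call in 5 of the 12 leave-outs. Of 23 chemokines 1 passed, Ccl3, and the median was 0.11. This single call is 4.3% of the list and is no result about chemokines as a set.

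Stress and death programs are read against the 2.09% of all genes that were called higher. In the unfolded protein response list 3 of 24 passed higher, the disulfide isomerase Pdia6 (0.61), the chaperone Hspa5 (0.46) and the transcription factor Atf4 (0.32). They kept the call in 4, 1 and 1 of the 12 leave-outs, and none of the 24 passed without KO light replicate 3 and without the exchange. Of 17 p53 and Gadd45 damage response genes 2 passed, Gadd45b and Phlda3, a repressor of the kinase Akt (1.06, which kept the call in 1 of the 12 leave-outs), and of 17 cytosolic heat shock chaperones 1, Bag3 (0.49). Of 33 death receptors, Bcl-2 family members and caspases 1 passed, the tumor necrosis factor receptor Tnfrsf1a (0.75), which is 3.03% of them and near the share of all genes. Fas, a death receptor, was at 0.38 (adjusted p = 0.0998) and Bcl2, which restrains the mitochondrial path of apoptosis, at -0.36 (adjusted p = 0.0552), with exchanged arrays. As labelled they were at 0.15 and -0.21.

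Photoreceptor genes leaned the other way, and their counts are read against the 0.844% of all genes called lower. All 18 rod phototransduction genes had a negative interaction with exchanged arrays, though some were close to 0. The values ran from -0.46 to -0.01 at a median of -0.29, and 6 of the 18 passed, none higher. Over all genes tested 10973 of 19189 were negative. Pdc, phosducin, which binds the transducin subunits, was at 11.80, 11.79 and 11.76 in KO dark, 11.81, 11.69 and 11.74 in WT dark and 11.85, 11.78 and 11.76 in WT light. It was at 11.34 and 11.58 in KO light replicates 1 and 2, at 11.20 on the array labelled WT dark replicate 4 and at 11.67 on the array labelled KO light replicate 3. The arrays taken as KO light were the lowest, without overlap, and WT light did not separate from the dark arrays. The interaction was -0.46 ± 0.11 (adjusted p = 0.0396), it kept the call in 1 of the 12 leave-outs, and as labelled it was -0.31 ± 0.10 (adjusted p = 0.555). Slc24a1, the sodium-calcium exchanger of the rod outer segment, was at -0.43, Gnb5, a partner of the transducin deactivation complex, at -0.39, Guca1a, an activator of guanylate cyclase, at -0.36, Cngb1, a subunit of the light-sensitive channel, at -0.36, and Pde6b, a subunit of the rod phosphodiesterase, at -0.34. Slc24a1, Gnb5 and Guca1a kept the call in 5, 2 and 6 of the 12 leave-outs. Cnga1, the other channel subunit, was at -0.37 and missed the threshold (adjusted p = 0.0639).

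The shift of the rod genes was small beside that of the glial genes, and it leaned on few arrays. The mean log2 level of the rod list was 11.93 to 11.96 in KO dark and 11.95 to 12.01 over the WT dark and WT light arrays, against 11.66, 11.78 and 11.59 on the arrays taken as KO light and 11.94 on the array labelled KO light replicate 3. Without KO light replicate 3 and without the exchange 1 of the 18 passed, Guca1a, at a median of -0.22, and as labelled none, at -0.15, with 7 at an unadjusted p under 0.05. The summed intensity of 5 rod markers, none of them at 0, was 29298 to 30320 in KO dark, 29941 to 31038 in WT dark, 29045 to 30864 in WT light and 26037 to 28044 on the arrays taken as KO light, and 2 of the 5 passed lower. The rod markers Gnat1 and Sag had interactions of -0.04 and -0.01 with exchanged arrays and did not pass.

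Of 15 transcription factors of photoreceptors 4 passed, all lower, beside 0.844% of all genes. The median was -0.18, and 11 of the 15 were negative. Nrl, which sets rod identity, was at 9.88, 9.86 and 9.86 in KO dark, 9.94, 9.86 and 9.92 in WT dark, 9.96, 9.85 and 9.82 in WT light and 9.09, 9.51 and 9.0 on the arrays taken as KO light. Only the last group stood away, and the array labelled KO light replicate 3 was at 9.79. The interaction was -0.64 ± 0.14 (adjusted p = 0.0320), and it kept the call in 2 of the 12 leave-outs. With neither array in doubt it was -0.54 (adjusted p = 0.0688), and as labelled it was -0.37 ± 0.18 (adjusted p = 0.734). Rorb and Esrrb, nuclear receptors of rods, were both at -0.53 and kept the call in 1 and 4 of the 12 leave-outs, and Mef2c was at -0.47. Of 12 cone phototransduction genes 1 passed lower, Guca1a, which rods share, and 1 higher, Gnb3, the beta subunit of cone transducin (0.52). Gnb3 is also made by ON bipolar cells. The summed intensity of 3 cone markers, none at 0 and none called, was 7219 to 7555 in KO dark, 7292 to 7821 in WT dark, 6508 to 7690 in WT light and 4523 to 6886 on the arrays taken as KO light. That of 5 bipolar cell markers, none at 0 and 2 of them called lower, was 8443 to 8548, 8065 to 8412, 8436 to 8677 and 7776 to 8158 in the same order. The part of either cell type in these results was not tested. Of 17 outer segment structure genes Rp1l1, a protein of the photoreceptor axoneme, passed lower (-0.54) and Impg2, a matrix proteoglycan around photoreceptors, higher (0.62). Single calls in lists this short, as in the cone list, are no result about the list.

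Crx and Otx2 bind short sites before photoreceptor genes, and the stretch TAATCC on either strand was sought in the promoters of the RefSeq annotation of GRCm38.p6, from 250 bases before to 50 bases after each start. It was present in 7.06% of all 32851 promoters and in 26.8% of the 41 promoters of 28 matched genes of the rod and photoreceptor factor lists. Of the 10 matched members that passed with exchanged arrays 3 held it. That is 21.4% of their 14 promoters, so the called members did not carry it more often than the lists as a whole. Among all genes called lower with exchanged arrays it was in 8.99% of promoters, beside 6.43% for all genes tested. The 3 are shown because they are rod genes that carry it close to the start, and a link to their calls was not tested. The capitals mark TAATCC or its reverse complement GGATTA, in windows of 30 bases read 5′ to 3′ on the gene's strand.
Cngb1, 58 bases before the start, chr8:95306626-95306655, minus strand: ttctgcacatgcTAATCCtttgcacccggc
Cngb1, 25 bases before the start, chr8:95306593-95306622, minus strand: tctagtgccaatTAATCCtggctgggtctg
Gnb5, 6 bases before the start, chr9:75306270-75306299, plus strand: tccagataaaagGGATTAggtgaccaatgg
Guca1a, 57 bases before the start, chr17:47400646-47400675, minus strand: cctgttaagaagGGATTAgcagactgcaaa
A match of these letters is a description of the sequence, not a measured site. The STAT stretch TTCCNGGAA, where N is any base, was found in 1.15% of all promoters and, among the 14 matched members called in the LIF and reactive glia lists, in Gfap. There the match began 2 bases before the start and ran across it, in the window chr11:102897183-102897212 on the minus strand.
Gfap: atgggggtgcTTCCAGGAAgtcaggggcag

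The probe set of Mir183 was also called, and was chosen for mention after its value was seen, because the microRNA comes from a cluster of sensory cells that photoreceptors express strongly. The probe set measures RNA of the microRNA's gene and not the mature microRNA. It was at 6.81, 6.92 and 6.67 in KO dark, 6.44, 6.32 and 6.47 in WT dark, 5.68, 6.15 and 5.83 in WT light and 5.45, 5.78 and 5.43 on the arrays taken as KO light. Both genotypes fell in light without overlap, KO by 1.25 and WT by 0.52. The interaction was -0.72 ± 0.16 with exchanged arrays (adjusted p = 0.0368), and it held in 3 of the 12 leave-outs. As labelled it was -0.32 (adjusted p = 0.878), with KO light replicate 3 at 6.63. The mature products of the gene on chromosome 6 are printed from RefSeq with the seed, bases 2 to 8, in capitals.
mmu-miR-183-5p: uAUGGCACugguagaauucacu
mmu-miR-183-3p: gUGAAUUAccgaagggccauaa

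Genes of mitochondrial energy metabolism, to which PGC-1α is tied in other tissues, held no call in either form of the comparison. None of 71 oxidative phosphorylation genes passed as labelled or with exchanged arrays, and the median interaction was -0.01 and 0.02. At an unadjusted p under 0.05 in limma there were 3 and 7 of the 71. None of 22 citrate cycle genes passed, with medians of 0.03 and 0.06 and with 0 and 4 genes at an unadjusted p under 0.05. A missed threshold does not show that the responses were equal. With exchanged arrays the median light response of the oxidative phosphorylation genes was 0.11 in KO and 0.09 in WT. Of 17 PGC-1 coactivators and their partners Esrrb alone passed, and Ppargc1b, the related coactivator, was at -0.36 (adjusted p = 0.0822) with exchanged arrays and at -0.14 as labelled. Of 21 Nrf2 targets and antioxidant enzymes 2 passed higher, beside 2.09% of all genes: Slc7a11, the cystine transporter (0.97), and Mt1. None of 28 mitosis and DNA repair genes and none of 16 circadian clock genes passed in limma, with 4 and 3 of them at an unadjusted p under 0.05 with exchanged arrays.

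Matrix genes were called in both directions, beside 2.09% higher and 0.844% lower over all genes. Of 31 extracellular matrix genes and proteases 3 passed higher, Timp3, an inhibitor of metalloproteinases (0.84), the protease Adamts1 (0.69) and the membrane protease Mmp14 (0.58), and 1 lower, Fndc1, which is also the only list member called as labelled. Of 24 BMP and TGF-beta genes 1 passed, Bmp4 (0.78), which fell in WT light by 0.72 and was level in KO (0.07, adjusted p = 0.748).

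With the arrays as labelled, Fndc1 was the one call in any of the 24 lists. The as-labelled median interaction was 0.22 in the interferon list, 0.05 in the microglia list, 0.02 in the complement list and 0.06 in the chemokine list. It was 0.08 in the unfolded protein response list, 0.03 in the p53 list, 0.04 in the heat shock list and 0.01 in the death receptor list. It was -0.12 in the cone list, -0.11 in the list of photoreceptor transcription factors, -0.04 in the outer segment list and 0.02 in the Nrf2 list. The median of all genes was -0.02 in this form of the comparison. In limma, 14 of 19 interferon genes had an unadjusted p under 0.05 with exchanged arrays and 1 as labelled.

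A separate set of the 564 genes set WT dark against all other groups. There were 34 of these, 18 with a positive and 16 with a negative interaction. Abhd14a, a hydrolase, was at 10.46, 10.34 and 10.43 in WT dark and at 10.49 on the array labelled KO light replicate 3. All other arrays, the one labelled WT dark replicate 4 included, were between 7.89 and 8.24. Its neighbor on chromosome 9, Abhd14b, ran the opposite way, at 8.43, 8.42 and 8.33 in WT dark, 8.45 on the array labelled KO light replicate 3 and between 9.75 and 10.18 on the others. Their interactions were 2.28 ± 0.11 and -1.86 ± 0.14 with exchanged arrays. As labelled they were 3.12 ± 0.63 and -2.31 ± 0.41, and neither was called (adjusted p = 0.188 and 0.0993 in limma). Cdk2ap1, a regulator of a cell cycle kinase (-1.23), Slc25a37, a mitochondrial iron importer (1.43), and Slitrk6, a neuronal transmembrane protein (-0.80), had the same form with exchanged arrays. As labelled these genes were at -1.62, 1.83 and -1.10, and none was called.

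These genes lay unevenly along the genome. Of the 34, 9 were on chromosome 14, 7 on chromosome 9 and 6 on chromosome 12, which is 26.47%, 20.59% and 17.65% of them, beside 3.66%, 6.10% and 3.41% of all genes tested. The array labelled KO light replicate 3 lay nearer WT dark than KO light replicates 1 and 2 in 32 of the 34. As these genes were called with the exchange, this count is no independent evidence for it. The KO response of the 34 genes ranged from -0.37 in Tln2 to 0.27 in Krt18. It was 0.04 in Abhd14a, -0.16 in Abhd14b, -0.06 in Cdk2ap1 and 0.17 in Slc25a37, and none of these 4 passed.

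Several genes outside the lists, called with exchanged arrays, are named here after their values were seen, since they followed the main form closely. Interactions are those with exchanged arrays unless said otherwise. Chil1, a chitinase-like protein of reactive glia, was at 9.04 to 9.16 in KO dark, 9.16 to 9.23 in WT dark, 9.74, 9.93 and 10.45 in WT light and 11.14, 11.50 and 11.48 on the arrays taken as KO light. It rose in both genotypes, and the interaction was 1.42 ± 0.20 (adjusted p = 0.00357). Vcam1, an adhesion molecule, had an interaction of 1.07 ± 0.14 (adjusted p = 0.00224). Rabgef1, which activates a small GTPase of endosomes, was at 11.40 to 11.48 in KO dark, 11.33 to 11.48 in WT dark, 11.21 to 11.23 in WT light and 10.40, 10.78 and 10.29 on the arrays taken as KO light. Its interaction was -0.79 ± 0.14 (adjusted p = 0.0100). Tnfaip3, an enzyme that damps NF-kappaB signaling, and Ppef2, a phosphatase of photoreceptors, were at -0.63 and -0.61. Ppef2 kept the call in 4 of the 12 leave-outs. As labelled none of these genes was called (adjusted p from 0.701 to 0.849). The as-labelled interaction was 0.71 in Chil1, 0.53 in Vcam1, -0.40 in Rabgef1, -0.39 in Tnfaip3 and -0.35 in Ppef2. The array labelled KO light replicate 3 was at 9.33 in Chil1 and at 11.45 in Rabgef1.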

How the data were processed

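Total RNA of pooled retinae was hybridized to 1 array per mouse, and 13 arrays were used here. The deposited table holds linear intensities per probe set, scaled between arrays by the authors (medians of 141.1 to 145.6). The submitters' processing notes name Partek. Its version, the summarization, the build and the filters are, like details of the scaling, not given in the sources used here. For RNA extraction the labels name Trizol and the methods another kit. For arrays, precision rests on 3 arrays per group. Dim genes were kept, since no background values were used.

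Intensities were taken to log2. Of 34760 probe sets, 21640 with 1 gene symbol were averaged to 19937 genes, and 748 on X or Y were left out. Probe sets with several or no symbols were not analysed here. The model had 4 groups and no covariate, fitted with limma 3.58.1 in R 4.3.3 (8 residual degrees of freedom), and Benjamini-Hochberg adjustment ran over all 19189 genes. For the interaction an adjusted p under 0.05 made a call, and for a light response a ratio of 1.2 or higher, or 0.87 or lower, was needed too. The fit was tested on simulated data. The members, lists, cell markers and tests were chosen with earlier results of these data known. Named genes are up to 10 per direction of those called as labelled, the 12 largest in each direction with exchanged arrays (predicted genes, clones, small RNAs and olfactory genes left out), up to 3 called members per list, and genes that the study names. Others are said to be chosen after their values were seen. Each fit was repeated without each array, with the replicate number as a block, without moderation, with a variance trend, quantile normalization, median centring, bright genes only, the brightest probe set, X and Y genes, array weights and a fold threshold. Promoters and microRNAs are RefSeq sequences of GRCm38.p6.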

Additional observations from a re-analysis of the deposited data

Results flagged for a closer look

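The interaction compares the same light contrast in 2 genotypes, so each gene called for it is a difference between groups by the test of that difference. There were 12 such genes as labelled and 564 with exchanged arrays, in limma with an adjusted p under 0.05. As labelled they were, on the log2 scale, Pcolce at 1.30, Odc1 at 0.80, Cdkal1 at 0.76, Shisa4 at 0.68, Synm at 0.65, Anxa3 at 0.62, Tubg2 at 0.58, Sowahb at -0.70, Nt5e at -0.76, Sh3yl1 at -1.05, Uaca at -1.12 and Fndc1 at -2.03. With exchanged arrays the 12 largest positive values were Abhd14a at 2.28, Gpnmb at 2.21, Ccl3 at 2.17, Lcn2 at 2.13, Serpina3n at 1.91, Gadd45b at 1.91, A2m at 1.80, Trf at 1.80, Oasl2 at 1.72, Atf3 at 1.70, Fgf2os at 1.64 and Cd44 at 1.64. The 12 largest negative values were Fndc1 at -2.12, Abhd14b at -1.86, Cmtm5 at -1.51, Cdk2ap1 at -1.23, Etnppl at -1.22, Sh3yl1 at -1.06, Uaca at -0.98, Pitpnm3 at -0.88, Folh1 at -0.86, Me1 at -0.84, Plpp2 at -0.84 and Slitrk6 at -0.80.

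The array labelled WT dark replicate 4 belongs to no group of the comparison as labelled. Its mean log2 level of the reactive glia and acute-phase genes was 8.71, above the 7.45 to 7.61 of the 3 other WT dark arrays and above every light array. No group held 4 or more arrays in the comparison, so single arrays were not tested against their group.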

How the results depend on the processing

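The count as labelled depended on single arrays: leaving out 1 of 12 gave 1 to 255 genes for the interaction, 0 to 1910 for the light response of KO and 1 to 832 for that of WT, with the highest value of each without KO light replicate 3. All 13 arrays as labelled gave 7 genes for the interaction, exchanged arrays 564, array weights 42 and no moderation 1. With exchanged arrays the leave-outs gave 230 to 1194 genes for the interaction, the most without KO light replicate 2 and the fewest without WT dark replicate 2, and every leave-out moved the count by over 1.5 times except that of WT light replicate 3 (504). They gave 528 to 957 for the light response of WT, the fewest without WT light replicate 3 (528) and WT dark replicate 2 (539), and 1910 to 2890 for that of KO. No moderation gave 74 genes for the interaction and array weights 875. Quantile normalization gave 620, of which 386 were higher, and median centring 584, of which 372 were higher, beside 402 of 564. The same settings gave 1074 rises of 2567 and 1085 of 3085 for the light response of KO, beside 1357 of 2565, and 309 of 946 and 325 of 892 for that of WT, beside 409 of 851. The replicate numbers did not mark pairs, with correlations of same-numbered deviations from -0.20 to 0.22. The fit with a replicate block called 3 genes as labelled and 480 with exchanged arrays for the interaction, and 0 and 9 for the light responses of KO and WT as labelled.

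Of single genes, Ppargc1b ranged from -0.299 to 0.004 as labelled over the leave-outs, beside -0.14 with all arrays, and was positive without KO light replicate 1. No other interaction changed sign in any of the settings run, among the 19 genes checked as labelled and the 73 checked with exchanged arrays. Interactions of other genes were not checked for a change of sign. Of 1595 values of 73 genes with exchanged arrays 316 lost the call, 15 gained it and 1264 stayed on their side of the threshold. The causes were not tested. With 3 arrays per group, and sex and light changing together, a sex effect cannot be told apart from a light effect, and signal over background limits the dim genes.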
